A study of Rattus norvegicus with 23 samples.

Results

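Zinc finger genes named Zbtb, Zfp or Znf were followed across newborn rat hearts exposed to maternal diabetes, maternal high fat (HF) diet or both. A gene was included when a probe set carried a single gene symbol that starts with Zbtb, Zfp or Znf followed by a digit. This gave 198 probe sets of 187 genes, out of 14506 genes with a single symbol on the array. Of the 187 genes, 35 were Zbtb genes, 151 were Zfp genes and 1 was a Znf gene (Znf57l). The Zfp genes and Znf57l are described together as 152 Zfp and Znf genes. Where a gene had several probe sets, as 10 genes did, they were averaged in each heart. RefSeq names 458 protein-coding rat genes in this way, and 271 of them, Zbtb34, Zfp319 and Znf740 among them, had no probe set with their name alone in the annotation used and were not analysed here.

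Each array held RNA of 1 whole heart taken on postnatal day 1 from Sprague Dawley offspring, males and females together. Control hearts (n = 7) came from dams on control diet given citrate buffer on gestational day 14, diabetes hearts (n = 6) from dams on control diet given 65 mg/kg streptozotocin on that day. HF diet hearts (n = 5) came from dams on HF diet given buffer, and combination hearts (n = 5) from dams on HF diet given streptozotocin. Diets began at least 28 days before mating, and streptozotocin, which destroys the insulin-producing beta cells, was given to the dam and not to the pup. Values are log2 distances from the median of that probe set over the 23 hearts, so a value of 0 is the median heart. Groups can be compared on this scale, whereas how strongly a gene is expressed is lost.

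C2H2 zinc finger proteins bind DNA through repeated fingers, each a short fold held by a zinc ion, and they form the largest class of transcription factors in mammals. Many Zfp proteins also carry a KRAB domain, which recruits the corepressor Trim28 and with it the machinery that writes heterochromatin, often over transposable elements. Their genes arose by repeated duplication and lie in clusters of near copies. Zbtb proteins carry a BTB domain in front of their fingers, through which they pair with each other and recruit corepressors such as Ncor1 or the ubiquitin ligase scaffold Cul3. A few genes share the Zfp name but not the structure: Zfp36 and its relatives carry CCCH fingers that bind messenger RNA and speed its decay. Near copies can share probe sequence, so values of single clustered genes may hold signal of a neighbour.

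Some hearts stood apart and are named before the results. Control heart 1 carried lung and thymus transcripts, with Sftpc at 5.93 and a mean of 3.53 over 9 lymphoid and thymus markers, against -0.14 to 0.22 in the other 22 hearts. Scgb1a1, a secretory gene of the airway, was also high in diabetes heart 3 (3.92) and HF diet heart 4 (4.22). The mean of 13 cardiomyocyte markers lay between -0.24 (combination heart 1) and 0.10 in the 23 hearts, and 0 of the 13 passed the threshold against control hearts. Combination hearts 1 and 2 share a code stem in their labels, as do 4 and 5, and HF diet hearts 3, 4 and 5. What a stem stands for is not stated. Unless said otherwise, the tests below count each heart as a unit of its own, also where hearts share a stem. In whole hearts, fewer cells of a type and less RNA per cell cannot be told apart.

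Genes with Zbtb, Zfp and Znf names leaned low in combination hearts. Of the 187 genes, 138 (73.8%) had a lower mean in combination than in control hearts, against 48.7% of all 14506 genes. The median difference was -0.06 on the log2 scale for the 35 Zbtb genes and -0.06 for the 152 Zfp and Znf genes, beside 0.004 for all genes. The shares below 0 were 71.4% and 74.3%, so the 2 families sat side by side in this comparison. Without combination heart 3, the median moved to -0.04 for Zbtb and to -0.01 for Zfp and Znf genes, and the share of the 187 genes with a lower mean fell to 55.6%, beside 49.4% of all genes.

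**Figure D1:**
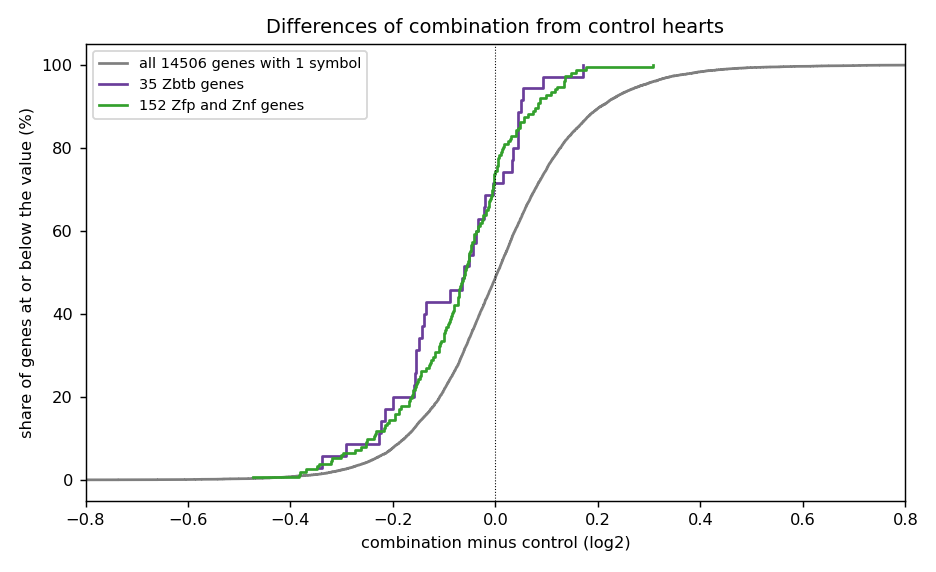
Cumulative share of genes (y axis, %) by their difference between combination and control hearts (x axis, log2), for 35 Zbtb genes, 152 Zfp and Znf genes and all 14506 genes with 1 symbol. Both zinc finger curves lie to the left of the curve of all genes and cross 0 at 71.4% and 74.3%, where that of all genes crosses at 48.7%.

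In the linear model, 8 of the 187 genes (4.28%) were lower in combination than in control hearts past the threshold of the study, more than 25% higher or 20% lower with an unadjusted p under 0.05, and 0 were higher. Of all genes with a symbol, 1.03% were lower and 2.51% higher past it. Zbtb genes made up 2 of the 8 (2 of 35, 5.71%) and Zfp genes 6 (6 of 152, 3.95%). No gene passed after adjustment: the lowest Benjamini-Hochberg adjusted p in limma was 0.497. At an unadjusted p under 0.05 alone, 16 of the 187 were lower (8.56%) and 0 higher, and 4.29% of all genes were lower. With the methods' t-test 3 genes passed, Zbtb1, Zbtb44 and Zfp451, where 0.372% of all genes were lower. The 8 genes fell to between 0.720 and 0.791 times the control mean.

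Zbtb1, a BTB factor needed for the development of lymphocytes, was the member with the smallest p. Its values in control hearts ran from -0.05 to 0.35 with a median of 0.12, and in combination hearts 1 to 5 they were -0.06, -0.20, -0.58, -0.14 and -0.16. All combination hearts lay below all control hearts, and heart 3 lay far below the other combination hearts. Of all genes, 0.103% had every combination heart below every control heart, and Zbtb1 was the only one of the 187. The difference was -0.35 ± 0.09 on the log2 scale (SE; limma adjusted p = 0.497). The exact permutation p, two-sided, was 0.00126, the smallest that 5 against 7 hearts allow, and 0.614 after adjustment over all genes. Diabetes hearts ran from -0.10 to 0.26 and HF diet hearts from -0.12 to 0.16, both overlapping the control range. The highest value of all, 0.35, was that of control heart 1, in which the thymus markers were high. Without that heart the difference was -0.31 and without combination heart 3 it was -0.26, in both cases short of the fold threshold.

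The other Zbtb gene past the threshold was Zbtb44, and its identity is uncertain. Its 1 probe set bears this name in the array annotation used here, whereas the study lists that probe set under Prdm10, another zinc finger gene of the same chromosome. Counts of Zbtb genes include it. Control hearts ran from -0.10 to 0.30 with a median of 0.01, and combination hearts 1 to 5 were at -0.47, -0.28, -0.48, 0.01 and -0.05. Hearts 1, 2 and 3 lay below all control hearts, whereas hearts 4 and 5 lay among them. The difference was -0.34 ± 0.11 (SE; limma adjusted p = 0.497; exact permutation p = 0.0278, two-sided, adjusted p = 0.614). Leaving out combination heart 3 (-0.28) or control heart 1 (-0.30) put it short of the fold threshold.

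Zfp451, an enzyme that attaches SUMO, the small ubiquitin-like modifier, to other proteins, was the third gene past the threshold with both tests. Its control hearts ran from -0.21 to 0.33 with a median of 0.06, and its combination hearts were at -0.11, -0.32, -0.55, -0.10 and -0.14. All combination hearts lay below the control median, and 2 of them below every control heart. The difference was -0.34 ± 0.11 (SE; limma adjusted p = 0.497; exact permutation p = 0.0126, two-sided, adjusted p = 0.614). It was -0.27 when combination heart 3 was left out and -0.31 when control heart 1 was.

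RefSeq windows around the start of transcription are shown for Zfp451 and for Zfp26 and Zfp867, described next, as genes that fell and for which a window was at hand. Each runs from 250 bases before to 50 bases after the start of 1 transcript in the annotation of GRCr8, 5′ to 3′ on the strand of the gene. Genes can have several starts. The start used lay 9497 bases inside the outermost start of Zfp451, 230 bases inside that of Zfp26 and at that of Zfp867. For Zbtb1 it lay 12584 bases inside, and its window is not shown. A window was also at hand for Zbtb44, whose identity is uncertain, and is not shown either. Capitals mark the letters of 6 motifs searched on both strands: the TATA box, the CCAAT box, the GC box, the cores of ETS and YY1 sites and the cAMP response element, with their letters given below the sequences.
Zfp451, chr9:43536557-43536856, - strand: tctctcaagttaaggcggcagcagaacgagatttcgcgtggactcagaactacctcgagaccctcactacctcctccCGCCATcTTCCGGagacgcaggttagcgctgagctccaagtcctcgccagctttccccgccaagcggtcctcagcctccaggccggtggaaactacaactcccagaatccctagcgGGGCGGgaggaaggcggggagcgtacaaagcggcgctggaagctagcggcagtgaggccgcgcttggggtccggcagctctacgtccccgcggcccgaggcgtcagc
Zfp26, chr8:27261600-27261899, - strand: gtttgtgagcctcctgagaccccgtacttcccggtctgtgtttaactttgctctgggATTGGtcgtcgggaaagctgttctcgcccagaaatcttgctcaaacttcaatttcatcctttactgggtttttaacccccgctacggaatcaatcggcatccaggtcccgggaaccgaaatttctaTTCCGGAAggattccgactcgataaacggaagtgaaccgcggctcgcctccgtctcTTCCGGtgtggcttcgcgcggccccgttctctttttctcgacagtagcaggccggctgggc
Zfp867, chr10:44754715-44755014, - strand: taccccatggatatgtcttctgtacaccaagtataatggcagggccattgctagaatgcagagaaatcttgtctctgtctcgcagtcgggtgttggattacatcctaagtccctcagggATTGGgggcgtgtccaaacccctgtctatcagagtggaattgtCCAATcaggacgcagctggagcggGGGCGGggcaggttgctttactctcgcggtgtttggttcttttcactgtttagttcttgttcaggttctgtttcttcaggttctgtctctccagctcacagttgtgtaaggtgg
The window of Zfp451 held 64.7% G or C, a YY1 core at -173, an ETS core at -166 and a GC box at -57, counted from the first transcribed base as 0. That of Zfp26 held 54.7% G or C, 3 matches to the ETS core, of which those at -67 and -65 overlap, and a CCAAT box at -193. That of Zfp867 held 50.3% G or C, CCAAT boxes at -131 and -88 and a GC box at -64. RefSeq windows were at hand for 156 of the 187 genes, and some genes have several, which gave 166 windows, 53 of them more than 1000 bases inside the outermost start of their gene. The ETS core, searched as CCGGAA, was in 38.7% of 31 Zbtb windows and 37.8% of 135 Zfp and Znf windows, against 20.9% of 12536 windows of array genes and 15.0% of all 33469 windows. For the GC box, searched as GGGCGG, the shares were 54.8% and 45.9%, against 50.1% of array genes and 33.1% of all. The CCAAT box, with just those letters, was in 25.8% and 37.8%, against 38.2% and 37.5%. TATA boxes, searched as TATAAA, were in 16.1% and 8.89%, against 11.6% and 14.2%. YY1 cores, searched as ATGGCG, were in 12.9% and 16.3%, against 13.6% and 9.98%. The cAMP response element, searched as TGACGTCA, was in 0 of 31 and in 3.7%, against 2.44% and 1.83%. A match is only a run of letters and does not show that a factor binds there.

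The other 5 genes past the threshold passed it in limma and not with the methods' t-test, and in each the combination hearts were split. Zfp512b fell the most. Its control hearts ran from -0.27 to 0.40 with a median of -0.06, and its combination hearts were at -0.93, -0.64, -0.58, 0.00 and 0.07. Hearts 1, 2 and 3 lay below all controls and hearts 4 and 5 among them, so the groups overlapped. The difference was -0.47 ± 0.17 (SE; limma adjusted p = 0.497; exact permutation p = 0.0379, two-sided, adjusted p = 0.614).

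Zfp385d, which encodes zinc fingers of another type than those of the KRAB proteins, split in the same manner. Control hearts lay between -0.33 and 0.13 with a median of 0.00, and combination hearts were at -0.60, -0.68, -0.69, -0.10 and 0.08. The 3 low hearts were below every control heart and the other 2 were near the control median. The difference was -0.37 ± 0.16 (SE; limma adjusted p = 0.497; exact permutation p = 0.0391, two-sided, adjusted p = 0.614).

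Zfp39 lay between -0.27 and 0.35 in control hearts (median 0.04) and at -0.60, -0.41, -0.89, 0.07 and 0.14 in combination hearts. Again hearts 1 to 3 were below all controls, while hearts 4 and 5 were above the control median. The difference was -0.35 ± 0.15 (SE; limma adjusted p = 0.499; exact permutation p = 0.0909, two-sided, adjusted p = 0.614), and it was -0.21 without combination heart 3.

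Zfp26 ran from -0.32 to 0.68 in control hearts (median 0.09), the highest being control heart 1, and was at -0.20, -0.43, -0.65, -0.10 and 0.10 in combination hearts. Zfp867 ran from -0.56 to 0.50 in control hearts (median 0.18) and was at -0.68, -0.38, -0.52, -0.11 and 0.02 in combination hearts. These genes had the widest control ranges of the 8, and 2 and 1 of their combination hearts lay below all controls. The difference was -0.38 ± 0.15 for Zfp26 and -0.38 ± 0.17 for Zfp867 (SE; limma adjusted p = 0.497 and 0.499; exact permutation p = 0.077 and 0.102, two-sided, both adjusted to 0.614).

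Over the 8 genes, combination hearts 1, 2 and 3 were all below hearts 4 and 5 in 6, and hearts 4 and 5 stayed within the control range in 7, the exception being Zbtb1. Combination heart 3 was the lowest of all 23 hearts in 6 of the 8. Leaving out single hearts of the 2 groups gave 2 to 13 genes lower past the threshold. The count was 2 (1.07%) when combination heart 3 was left out, near the 0.958% of all genes. It was 3 for control heart 1 (1.60%, all genes 0.641%) and 13 for combination heart 4 (6.95%, all genes 2.43%). Without the 3 hearts in which airway genes were high (control heart 1, diabetes heart 3 and HF diet heart 4) 2 passed (1.07%, all genes 0.634%). With hearts of 1 stem averaged, 8 genes passed.

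**Figure D2:**
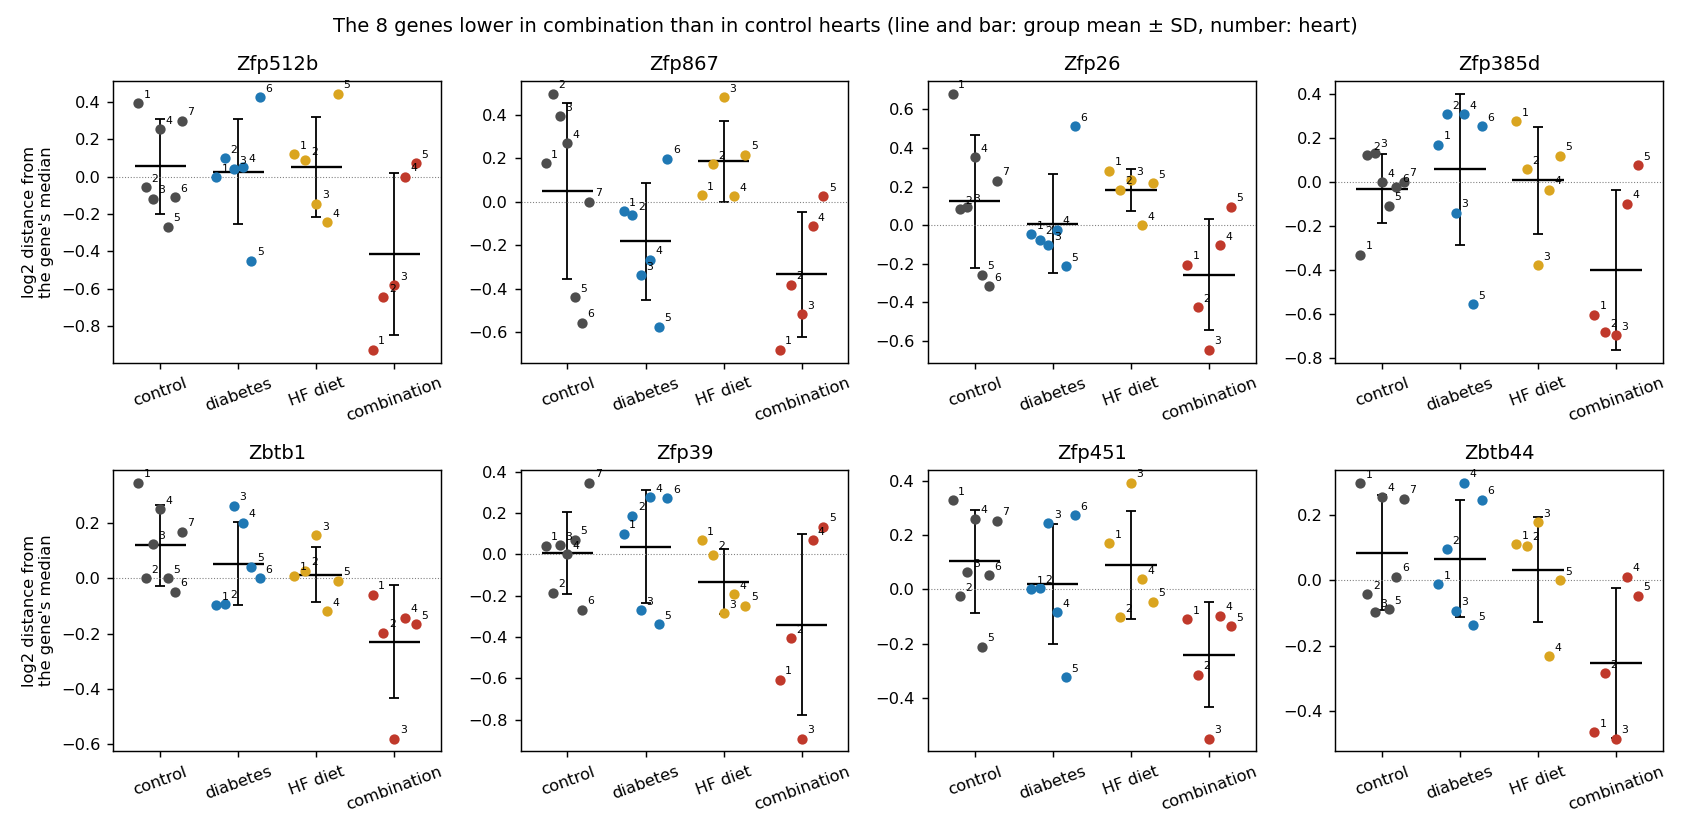
Values of the 8 genes lower in combination hearts (y axis, log2 distance from the gene's median), 1 point per heart with its number, by group; lines and bars are group means and SD. Combination hearts 4 and 5 sit within the control range in all but Zbtb1, and heart 3 is the lowest of 23 in 6 genes.

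Averaged over each family, combination heart 3 weighed more on the Zfp and Znf genes than on the Zbtb genes. For the 152 Zfp and Znf genes, control hearts had a mean of 0.02 ± 0.06 (SD, n = 7) and diabetes hearts of -0.02 ± 0.08 (SD, n = 6). HF diet hearts were at -0.01 ± 0.07 (SD, n = 5) and combination hearts at -0.06 ± 0.12 (SD, n = 5). Combination heart 3 was at -0.28, while the other 4 combination hearts lay between -0.01 and 0.01. Diabetes heart 3 (-0.17), HF diet heart 4 (-0.11) and control heart 6 (-0.08) were the lowest of their groups. Without combination heart 3, the combination mean was -0.001 ± 0.01 (SD, n = 4), within the spread of control hearts.

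For the 35 Zbtb genes, control hearts had a mean of 0.03 ± 0.06 (SD, n = 7) and diabetes hearts of 0.02 ± 0.07 (SD, n = 6). HF diet hearts were at 0.04 ± 0.02 (SD, n = 5) and combination hearts at -0.05 ± 0.06 (SD, n = 5). Combination hearts 1 to 5 were at -0.04, 0.04, -0.13, -0.04 and -0.07, and control hearts ran from -0.04 to 0.11. Hearts 3 and 5 lay below all controls and the others overlapped them. Without combination heart 3 the mean was -0.03 ± 0.05 (SD, n = 4). The Zbtb mean minus the Zfp and Znf mean of the same heart was 0.02 ± 0.06 for control and 0.04 ± 0.09 for diabetes hearts, 0.04 ± 0.06 for HF diet and 0.01 ± 0.09 for combination hearts (SD). Without combination heart 3 that of combination hearts was -0.03 ± 0.06 (SD, n = 4), the opposite sign. With all hearts the gap differed between groups by less than the SD within them, and without that heart its distance from HF diet hearts was larger than the SD of either group.

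**Figure D3:**
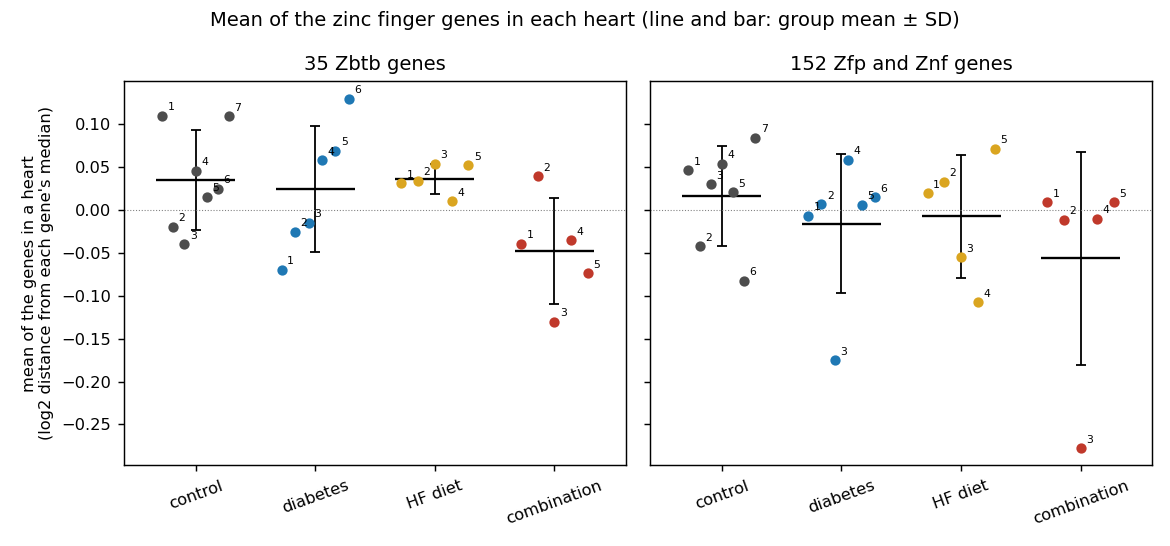
Mean of the 35 Zbtb genes and of the 152 Zfp and Znf genes in each heart (y axis, log2 distance from each gene's median), by group, with heart numbers; lines and bars are group means and SD. Among the Zfp and Znf genes combination heart 3 sits at -0.28 and diabetes heart 3 at -0.17, apart from the other hearts of their groups.

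Counted gene by gene, 153 of the 187 genes (81.8%) were below their median in combination heart 3, against 46.0% of all genes in that heart. In diabetes heart 3 it was 129 of 187 (69.0%, all genes 51.4%) and in HF diet heart 4 it was 127 (67.9%, all genes 46.5%). The smallest counts were 45 in HF diet heart 5 and 47 in control heart 7. Combination heart 3 held the lowest of the 23 values for 61 genes (32.6%), of which 8 were Zbtb, 52 Zfp and 1 Znf genes, against 6.13% of all genes. In combination heart 1, the array with the widest spread, the share was 16.6% and that of all genes 17.4%. Zinc finger genes of the SCAN type (Zscan and Zkscan, 8 genes), which the name rule leaves out, were lowest in diabetes heart 3 (-0.35) and combination heart 3 (-0.25), and 0 of the 8 passed the threshold in combination against control hearts.

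With maternal HF diet alone or diabetes alone no member passed the threshold, and few of all genes did. Against control hearts 0 of 187 genes passed in HF diet hearts, where 0.476% of all genes did, and 0 in diabetes hearts, where 0.172% did. At an unadjusted p under 0.05 in limma the counts were 2 and 0 (1.07% and 0%), where all genes had 2.29% and 1.3%. With the methods' t-test they were 2 and 0 as well, where all genes had 2.6% and 1.47%. The 2 in HF diet hearts were Zfp612 and Zfp354c, both higher, and Zfp354c is named here after its values were seen. Their differences were 0.29 ± 0.09 and 0.20 ± 0.08 (SE; limma adjusted p = 1 for both). Median differences were -0.004 for Zbtb and -0.02 for Zfp and Znf genes in HF diet hearts, and -0.02 and -0.03 in diabetes hearts. The share of the 187 genes with a lower mean than in control hearts was 57.2% in HF diet hearts (all genes 47.8%). In diabetes hearts it was 63.6% (all genes 51.5%), so a lean to low values was not confined to combination hearts. These 2 comparisons share the control hearts with that of combination hearts.

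**Figure D4:**
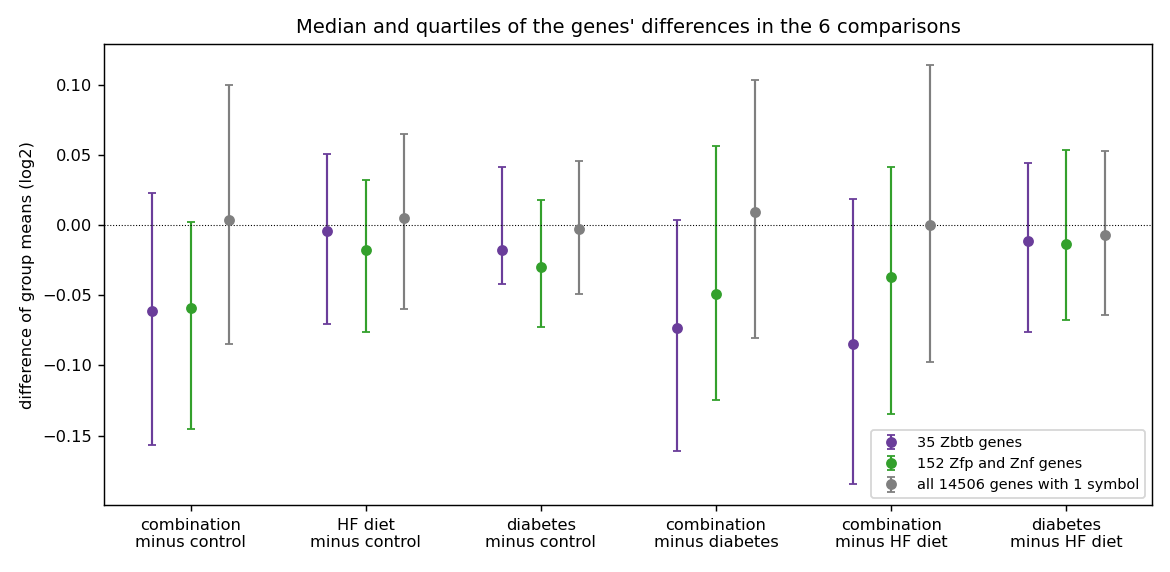
Median (point) and quartiles (bar) of the genes' differences (y axis, log2) in the 6 comparisons of 2 groups, for Zbtb genes, Zfp and Znf genes and all genes with 1 symbol. The zinc finger medians are lowest in the 3 comparisons with combination hearts, at -0.04 to -0.08, and every bar overlaps that of all genes.

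Against diabetes hearts, 3 of 187 genes (1.60%) were lower in combination hearts and 0 higher, where 0.972% of all genes were lower. They were Zfp385d (-0.46 ± 0.16), Zfp512b (-0.44 ± 0.18) and Zfp39 (-0.38 ± 0.16; SE, limma adjusted p = 0.528 for each), and all 3 also were lower than in control hearts. Diabetes hearts ran from -0.55 to 0.31 in Zfp385d, from -0.45 to 0.43 in Zfp512b and from -0.34 to 0.28 in Zfp39, and diabetes heart 5 was the lowest in each. Every one of these ranges overlapped that of combination hearts. With the methods' t-test 0 of the 187 passed, and 0.269% of all genes were lower.

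Against HF diet hearts, 10 genes (5.35%) were lower and 0 higher, where 2.06% of all genes were lower. Zfp867 differed the most. Its HF diet hearts were at 0.03, 0.17, 0.48, 0.03 and 0.22, all above the combination hearts, of which heart 5 (0.02) came close to the lowest of them. The difference was -0.52 ± 0.18 (SE; limma adjusted p = 0.369; exact permutation p = 0.00794, two-sided, the smallest that 5 against 5 allow, adjusted p = 0.42). Hearts that share a stem counted as separate units in this permutation, and both groups hold such hearts. Zfp512b (-0.47 ± 0.18), Zfp26 (-0.44 ± 0.16) and Zfp385d (-0.41 ± 0.17) followed, with limma adjusted p = 0.369 for each.

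Zbtb20, a repressor known from liver and brain, was the next, with a difference of -0.38 ± 0.17 (SE; limma adjusted p = 0.371). Its combination hearts were at -0.91, -0.44, -0.08, 0.07 and -0.06 and its HF diet hearts at 0.39, 0.00, 0.01, -0.05 and 0.10. Only combination hearts 1 and 2, of the same stem, lay far below the HF diet hearts. Against control hearts, which ran from -0.44 to 0.24, Zbtb20 was at -0.22 ± 0.15 and did not pass.

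Zbtb39 and Zfp612, like Zfp867, were lower in combination than in HF diet hearts with no overlap. Zfp592, named here after its values were seen and not among the 10, did not overlap either, at -0.30 to -0.11 against 0.00 to 0.21. How many of all genes had no overlap in this comparison was not counted, so the lack of overlap cannot be called particular to these genes. In the exact permutation test, genes without overlap have the smallest possible p, 0.00794, which was 0.42 after adjustment over all genes. By the looser limit of an unadjusted p under 0.05 in that test, 18 of the 187 genes and 1580 of all 14506 passed. Zbtb39 was at -0.32, -0.21, -0.32, -0.07 and -0.23 in combination hearts and at 0.20, 0.03, -0.04, 0.08 and 0.33 in HF diet hearts. All of its combination hearts were low, without the split seen in Zfp512b. The difference was -0.35 ± 0.11 (SE; limma adjusted p = 0.369; exact permutation p = 0.00794, adjusted p = 0.42). Against control hearts Zbtb39 was -0.29 ± 0.10, short of the fold threshold. Zfp612 was at 0.00, -0.16, -0.29, -0.16 and -0.02 in combination and at 0.21, 0.14, 0.47, 0.05 and 0.34 in HF diet hearts. It differed by -0.37 ± 0.09 (SE; limma adjusted p = 0.369; exact permutation p = 0.00794, adjusted p = 0.42), and its HF diet hearts were the high ones, since its combination hearts were -0.08 ± 0.09 from control. Zfp451, Zfp57 and Zfp521, the last named here after its values were seen, made up the 10.

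Between the single exposures, Zfp867 was the only gene of the 187 to pass, lower in diabetes than in HF diet hearts by 0.37 on the log2 scale (SE 0.18, limma adjusted p = 1). It made up 0.535% of the 187, and 0.138% of all genes were lower. Its diabetes hearts ran from -0.57 to 0.20. For the interaction, the departure of the combination from the sum of both single exposures, 3 genes (1.60%) were below 0 past the threshold and 0 above, where 1.96% of all genes were below. They were Zfp385d (-0.50 ± 0.22), Zfp612 (-0.41 ± 0.12) and Zbtb39 (-0.33 ± 0.14; SE, limma adjusted p = 0.675 for each). The share of zinc finger genes in the interaction was thus near that of all genes.

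Members with well-known roles mostly did not pass in combination hearts. Of 28 such genes listed, 21 were measured, 2 were lower past the threshold against control (Zbtb1 and Zfp451) and 18 had a difference below 0. Past the threshold, 4.28% of the 187 genes and 1.03% of all genes were lower in that comparison. Zfp260, a cardiac cofactor of Gata4, was at -0.01 ± 0.10 against control, with hearts 1 and 2 at 0.30 and 0.12 and heart 3 at -0.37. Zfp57, the KRAB factor that keeps methylation at imprinted genes, was at -0.23 ± 0.14 against control hearts and -0.35 ± 0.15 against HF diet hearts, where it passed. Its combination hearts were split as in Zfp512b, at -0.56, -0.36, -0.54, 0.13 and 0.00. Zfp423, a factor of fat cell commitment, was at -0.17 ± 0.11 and Zfp281, of pluripotent cells, at -0.09 ± 0.11. Zfp148, which binds GC-rich promoters, was at -0.06 ± 0.06 (all SE).

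Members that act on RNA, ribosomes or the spindle showed small differences too. Zfp598, a ubiquitin ligase for collided ribosomes, was at -0.16 ± 0.10 against control hearts and Zfp622, of the large ribosomal subunit, at 0.05 ± 0.10. Zfp207, which binds the spindle, was at -0.10 ± 0.07. Of the messenger decay factors, Zfp36 was at 0.13 ± 0.28, Zfp36l1 at -0.07 ± 0.15 and Zfp36l2 at -0.15 ± 0.11 (all SE). Among Zbtb factors, Zbtb7a, which silences globin genes, was at -0.14 ± 0.07 and Zbtb7b, which sets the CD4 lineage of T cells, at -0.07 ± 0.12. Zbtb17, the partner of Myc, was at -0.03 ± 0.05, and Zbtb33, which binds methylated DNA, at -0.05 ± 0.08. Zbtb24, needed for methylation at centromeres, was at -0.16 ± 0.13 and Zbtb48, at telomeres, at 0.01 ± 0.08.

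Spread between hearts was largest in genes that passed the threshold in no comparison. The median SD over the 23 hearts was 0.18 for Zbtb genes, 0.19 for Zfp and Znf genes and 0.17 for all genes, and 9 members had an SD above 0.35. Zbtb16, which glucocorticoids induce in many tissues, had the widest, 1.03. Its control hearts ran from -0.55 to 1.62 with a median of -0.16, diabetes hearts from -0.72 to 2.36, HF diet hearts were at -0.19, 0.01, 1.98, 2.51 and -0.75 and combination hearts at 0.62, 0.00, 1.57, -0.07 and -0.46. Each group held high and low hearts, and the difference of combination from control was -0.01 ± 0.59 (SE). Zbtb17 had the narrowest spread, 0.07.

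Zfp36 came next, with an SD of 0.49. It was at 1.21 in control heart 6 and 1.247 in combination heart 3, and at most 0.43 in the other hearts. Zfp455 had an SD of 0.43. It was low in combination heart 3 (-1.24), diabetes heart 3 (-0.89), HF diet heart 4 (-0.74) and control heart 6 (-0.73), the lowest heart of each group, and these were also the lowest hearts for the mean of all Zfp and Znf genes.

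**Figure D5:**
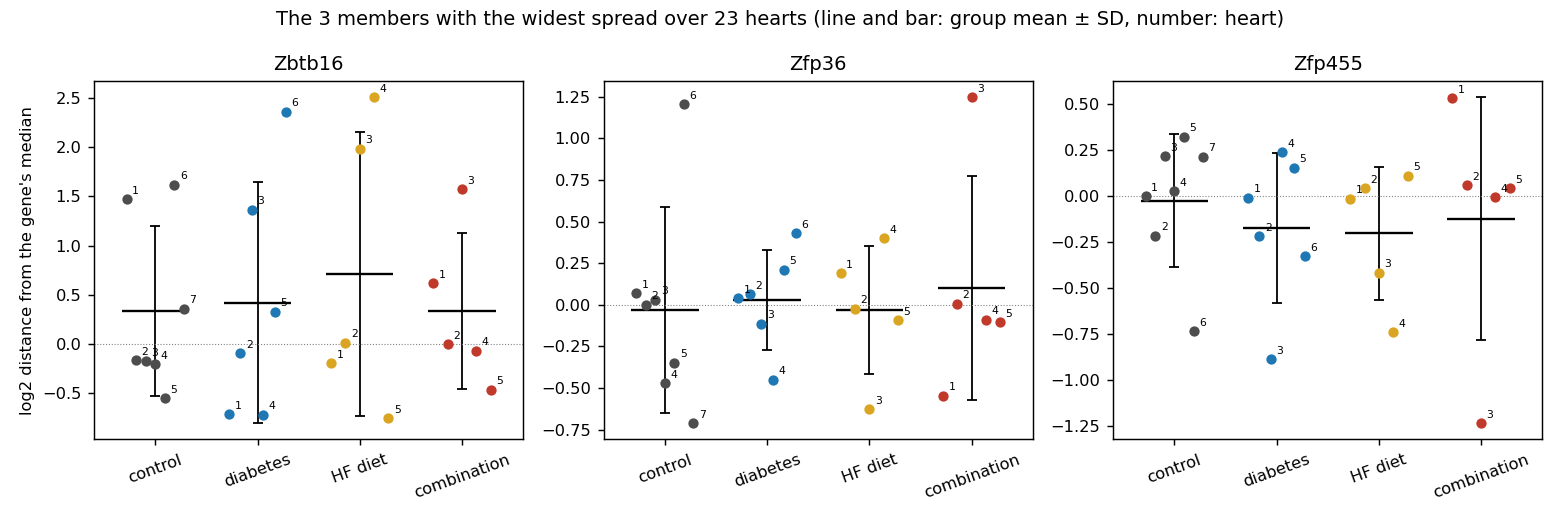
Values of Zbtb16, Zfp36 and Zfp455, the members with the widest spread (y axis, log2 distance from the gene's median), 1 point per heart with its number, by group; lines and bars are group means and SD. Zbtb16 spans -0.75 to 2.51 with high hearts in every group, and Zfp455 is lowest in combination heart 3 at -1.24.

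By RefSeq order the 187 genes lay on 21 chromosomes, 38 of them on chromosome 1 and 20 on chromosome 10. Runs of at least 4 members with at most 10 protein-coding steps from one to the next numbered 5 and held 28 genes, which are named here for their place and not by the rule. The run of 8 on chromosome 4 (Zfp786, Zfp398, Zfp282, Zfp212, Zfp777, Zfp746, Zfp467 and Zfp775) had a median difference of -0.19 between combination and control hearts, and all 8 were below 0, from -0.25 to -0.03. None passed the threshold, and 2 had an unadjusted p under 0.05 (Zfp398 and Zfp467). The run of 4 on chromosome 8 (Zfp26, Zfp426, Zfp266 and Zfp846) had a median of -0.19, all 4 were below 0, and Zfp26 passed. The 2 runs on chromosome 1, of 7 and 5 genes, had medians of -0.01 and -0.05, and the run of 4 on chromosome 7 had -0.04. In combination heart 3 the runs lay at medians of -0.20 (chromosome 4), -0.61 (chromosome 8), -0.36 (chromosome 7) and -0.38 and -0.37 (chromosome 1), so this heart was low across all 5.

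Where a gene had several probe sets they mostly moved alike. Zfp292 differed the most between its 3 probe sets, at -0.28, -0.30 and -0.13 in combination against control hearts, and their mean, -0.24, did not pass. The probe sets of Zbtb26 were at 0.08 and 0.01 and those of Znf57l at 0.05 and 0.11. The probe sets of Zfp101 held identical values and count as 1 measurement.

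Genes of the same machinery under other names were read from lists, beside 1.03% of all genes lower in combination than in control hearts past the threshold. Of 26 KRAB corepressor and heterochromatin genes, 19 were measured, 1 was lower in combination than in control hearts past the threshold and 0 higher, with a median of -0.07. The 1 was Chd3, a remodeller of the NuRD repressor complex, at -0.40 ± 0.15, and Trim28 was at -0.10 ± 0.07 (SE). Of 15 measured BTB corepressor and partner genes 0 passed (median -0.06), Ncor1 being at -0.19 ± 0.13 and Cul3 at -0.06 ± 0.08, and of 7 BTB zinc finger genes with other names 0 passed (median -0.02). Of 57 measured C2H2 factors with other names, 2 were lower, Klf11 (-0.43 ± 0.19) and Adnp (-0.39 ± 0.13; SE, limma adjusted p = 0.5 for both), and the median was -0.08.

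Some other lists had larger values in the same hearts. Of all genes, 1.03% were lower and 2.51% higher past the threshold in combination than in control hearts. Of 23 chromatin regulators with long transcripts 9 were lower (median -0.31), and their mean was -0.71 in combination heart 1, -0.22 in heart 2, -0.25 in heart 3, -0.01 in heart 4 and -0.14 in heart 5. Of 68 mitochondrial ribosome genes, 16 were higher and 0 lower, with a median of 0.25. Their mean was 0.66, 0.31, 0.13, -0.002 and 0.14 in combination hearts 1 to 5. In the other groups it was highest in diabetes heart 5 (0.30) and control heart 5 (0.25). Of 10 measured erythroid genes, which include the zinc finger gene Klf1, 1 was higher. Their mean was 0.14, 1.17, 0.44, -0.12 and -0.43 in combination hearts 1 to 5. The part of these movements in the zinc finger results was not tested.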

How the data were processed

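Affymetrix Rat Gene 1.0 ST arrays were hybridized with RNA of 23 hearts, of which 7 were control, 6 diabetes, 5 HF diet and 5 combination hearts. The authors averaged probe cell intensities for each probe set, normalized them in GeneSpring GX and filtered on quality, and deposited log2 values of 29170 probe sets. In that table every probe set has a median of 0 over the hearts. Neither the normalization algorithm nor the limits of the filter were given. With the level removed, brightness against background is lost, dim probe sets could not be filtered, and the number of arrays limits the precision.

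Names came from the array's annotation table, which gives 1 symbol for 15310, several for 323 and none for 13537. Probe sets of 1 symbol were averaged in each heart, giving 14506 genes beside 13860 other probe sets. All 187 zinc finger genes matched RefSeq by Entrez identifier and 0 symbols changed. The 28366 values per heart entered 1 limma fit (lmFit, eBayes) of the group means, and 6 pairwise differences and the interaction were taken from it. The threshold was that of the study, more than 25% higher or 20% lower with an unadjusted p under 0.05. All 28366 tests entered the adjustment by Benjamini-Hochberg. Shares of all genes are over the 14506. For single genes all splits of the hearts of 2 groups gave an exact permutation p, two-sided, adjusted over the 14506. The model was tested on simulated data. Groups and heart numbers came from the labels. Members, lists and tests were chosen with earlier results of these data known.

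Named genes are those past the threshold in combination against control (at most 25) or in another comparison (at most the 5 largest), those without overlap between combination and control hearts, members of known role, the 3 widest in SD and the 3 whose probe sets differ most. Of other lists, genes past the threshold were named. Alternatives were the methods' t-test, single probe sets, the replicate number or the code stem as a block, quantile normalization, genes with 1 symbol alone, array weights and leaving out each heart. Averaging hearts of 1 stem and leaving out the 3 hearts with airway genes were added after seeing the data. R 4.3.3, limma 3.58.1, Python 3.11.15, pandas 2.3.3, numpy 2.4.6 and matplotlib 3.10.9 were used.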

Additional observations from a re-analysis of the deposited data

Results flagged for a closer look

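In 40 sets of hearts (2 family means and the 8 genes lower in combination hearts, each in 4 groups), 4 held a heart that lay far from the others by Dixon's test, and chance alone flags about 1 in 20. Combination heart 3 was at -0.28 for the mean of the Zfp and Znf genes, where the other 4 combination hearts lay between -0.01 and 0.01, and at -0.58 for Zbtb1, where they lay between -0.20 and -0.06. Diabetes heart 3 was at -0.17 for the mean of the Zfp and Znf genes, the other diabetes hearts lying between -0.01 and 0.06. Diabetes heart 6 was at 0.51 for Zfp26, and the other diabetes hearts at -0.21 to -0.02. For 3 genes the combination hearts departed from the sum of both single exposures, by the interaction term in limma before adjustment: Zfp385d by -0.50, Zfp612 by -0.41 and Zbtb39 by -0.33 on the log2 scale, each with an adjusted p of 0.675.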

How the results depend on the processing

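The 2 medians of combination against control stayed below 0 under every alternative run, that of the Zbtb genes between -0.11 and -0.04 and that of the Zfp and Znf genes between -0.10 and -0.01. The value nearest 0 in each was that without combination heart 3. The counts did not hold. Of the 8 genes lower in combination than in control hearts, 8 remained with single probe sets, with the code stem as a random block and with genes of 1 symbol alone, and 7 with hearts of 1 stem averaged. The count fell to 3 with the methods' t-test, 3 with quantile normalization, 2 with array weights and 2 without the 3 hearts with airway genes. In the main fit 4.28% of the 187 genes and 1.03% of all genes were lower. With the methods' t-test it was 1.60% and 0.372%, with quantile normalization 1.60% and 0.414%, and without the 3 hearts 1.07% and 0.634%. Leaving out 1 heart gave 2 to 13 members lower past the threshold, with 1 (without combination heart 3) to 8 of the 8 among them. Zbtb genes lower numbered 2, and 1 with quantile normalization, 1 with array weights, 0 without the 3 hearts and 0 to 3 with 1 heart left out. Leaving out 1 heart gave 0 to 1 member higher. The counts of 0 in HF diet and diabetes hearts became at most 1 when 1 heart was left out (0 to 1).

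Against diabetes hearts 3 genes passed, 0 with the methods' t-test, 1 with quantile normalization, 1 with array weights, 5 with stems averaged and 1 to 9 with 1 heart left out. Against HF diet hearts 10 passed, 5 with the methods' t-test, 5 with quantile normalization, 2 with array weights and 6 to 16 with 1 heart left out. The 1 gene between diabetes and HF diet hearts became 0 with the stem as a random block, with quantile normalization, with array weights, with stems averaged and without the 3 hearts, and was 0 to 1 with 1 heart left out. The interaction had 3 genes, 7 without the 3 hearts and 1 to 11 with 1 heart left out. The cause of these moves was not tested.

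By their median correlation, hearts with the same replicate number in the labels were no more alike than other hearts. Deviations of the 31 pairs of hearts with the same number correlated at -0.422 to 0.558 (median -0.0829), and other pairs had a median of -0.0104. Of the 23 hearts, 7 correlated best with a heart of their own number. How many would do so by chance was not computed, so a pairing of some hearts remains possible. With the replicate number as a block, 1 gene was lower than in control hearts (Zbtb1, 1 Zbtb gene), and the gene between diabetes and HF diet hearts was lost (0).

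Some genes that did not pass in combination against control changed sign. Zbtb16 (-0.01) became 0.32 with the replicate block, 0.032 with the stem as a random block, 0.20 with stems averaged and 0.18 without the 3 hearts, and ran from -0.32 to 0.21 with 1 heart left out. Zbtb48 (0.01) became -0.0041 with the block, -0.0144 with quantile normalization, -0.0095 with array weights and -0.01 with stems averaged (-0.047 to 0.0507). Zbtb26 became -0.0114 and -0.0448 with quantile normalization and array weights (-0.0106 to 0.0986), and Znf57l -0.0225, -0.0412 and, with stems averaged, -0.0059 (-0.13 to 0.20). Zfp36l1 became 0.02 with stems averaged (-0.21 to 0.0465). With 1 heart left out, Zfp260 ran from -0.079 to 0.088, Zfp36 from -0.15 to 0.34, Zbtb7b from -0.16 to 0.0434 and Zfp455 from -0.26 to 0.18.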

Other observations

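Values of other genes are given here beside the means of the Zfp and Znf genes, from lists chosen after seeing the data. Over 5 genes that glucocorticoids induce (Fkbp5, Per1, Tsc22d3, Sgk1 and Klf9), the 5 highest means were those of diabetes heart 6 (0.81), control heart 6 (0.77), combination heart 3 (0.75), HF diet heart 4 (0.75) and diabetes heart 3 (0.57). In the same order, Zbtb16 was at 2.36, 1.62, 1.57, 2.51 and 1.36 and the mean of the Zfp and Znf genes at 0.01, -0.08, -0.28, -0.11 and -0.17. The list also held control heart 1 at 0.42, where Zbtb16 was at 1.47, and HF diet heart 3 at 0.29, where it was at 1.98.

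Over 6 measured immediate early genes, the transcripts that rise within minutes of a stimulus, control heart 6 (1.52) and combination heart 3 (1.31) were the highest, followed by combination heart 1 (0.69). Zfp36, itself such a gene, was at 1.21, 1.247 and -0.55 in these hearts. Neither list had a gene past the threshold in combination against control hearts.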
